A study of Mus musculus with 12 samples.

Results

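The genes described here encode carriers of sugars, organic acids, bile acids, vitamins, fatty acids and choline in the membranes of mouse intestinal epithelial cells. They were taken by symbol, as all genes of 16 symbol prefixes (Slc2a without Slc2a1, Slc5a, Slc10a, Slc13a, Slc16a, Slc17a, Slc19a, Slc22a, Slc23a, Slc27a, Slc37a, Slc44a, Slc46a, Slc51, Slc52a and Slco). The tables held 82 such symbols among 14499, and 73 of them were tested among 12962 genes. RNA was sequenced from Lgr5-GFP+ cells sorted by FACS from the intestinal epithelium of C57BL/6 mice. The mice were ApcFlox/Flox (Apc_KO, n = 4), ApcFlox/+ (Apc_HET, n = 4) or Apc+/+ (Apc_WT, n = 4), each library being from a separate mouse per the study's design text. All 3 genotypes carried Lgr5-CreERT2-ires-eGFP and received tamoxifen, as 1 injection and 5 days of diet, and cells were taken on day 15. The Cre recombinase is driven from the Lgr5 locus, so recombination starts in Lgr5-expressing cells, and the same allele supplies the GFP used for sorting. Apc encodes a negative regulator of Wnt signalling.

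Solute carriers are membrane proteins that move small molecules down, or by coupling to sodium or protons against, their gradients. In the small intestine, glucose enters the absorptive enterocyte through the apical sodium-coupled carrier SGLT1 (Slc5a1), fructose enters through GLUT5 (Slc2a5), and both can leave across the basolateral membrane through GLUT2 (Slc2a2). Bile acids are taken up in the ileum by the apical carrier ASBT (Slc10a2) and leave through the basolateral heterodimer of OSTα and OSTβ (Slc51a and Slc51b). Crypt stem cells are not the main site of absorption, and these carriers are known chiefly from differentiated cells.

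The deposited values were FPKM, a count of fragments scaled by how long the transcript is and how many fragments the library mapped. Apc itself read 17.3, 12.9, 15.3 and 9.94 FPKM in Apc_KO, 9.81, 10.96, 10.8 and 12.5 FPKM in Apc_HET and 9.97, 6.91, 10.5 and 8.20 FPKM in Apc_WT. Only a whole-gene value is given, with no value by exon, so these numbers do not show whether the floxed part was lost. The summed FPKM of 9 stem cell markers was 547 to 1241 in Apc_KO, 5089 to 8180 in Apc_HET and 5393 to 6198 in Apc_WT. Olfm4 made up most of that sum in Apc_HET and Apc_WT, and Lgr5 itself was 27.0 to 65.4 FPKM in Apc_KO, 21.3 to 31.6 FPKM in Apc_HET and 20.2 to 30.01 FPKM in Apc_WT. That of 20 enterocyte markers was 618 to 861 in Apc_KO, 2012 to 3991 in Apc_HET and 3421 to 6712 in Apc_WT, with the highest value in Apc_WT replicate 4. That of 4 measured stromal and endothelial markers was 154 to 173 in Apc_KO, 11.8 to 83.7 in Apc_HET and 6.81 to 20.9 in Apc_WT, with Vim the largest of them in every library. Among them the endothelial Cdh5 was 14.2 to 29.3 FPKM in Apc_KO, 0 to 0.00791 FPKM in Apc_HET and 0 to 0.0158 FPKM in Apc_WT, and Col1a1 was at 0 in 2 Apc_KO libraries. The sum of 4 measured leukocyte markers was 0.970 to 2.60 in Apc_KO, 4.40 to 6.01 in Apc_HET and 4.73 to 5.24 in Apc_WT. The sum of 7 goblet markers was 89.2 to 381 in Apc_KO, 1348 to 1543 in Apc_HET and 1260 to 2002 in Apc_WT, and that of 7 measured enteroendocrine markers was 19.2 to 113 in Apc_KO, 472 to 679 in Apc_HET and 267 to 1129 in Apc_WT. That of 5 tuft markers was 59.0 to 115 in Apc_KO, 17.5 to 35.03 in Apc_HET and 24.3 to 31.0 in Apc_WT. Avil made up most of it in Apc_KO, at 53.4 to 107 FPKM, against 4.82 to 10.98 in Apc_HET and 7.73 to 9.94 in Apc_WT. Other tuft markers went the other way. Dclk1 was 0.582 to 1.87 FPKM in Apc_KO and 3.79 to 4.23 in Apc_WT. Trpm5 was 0.598 to 3.46 in Apc_KO and 7.25 to 11.3 in Apc_WT, and Gfi1b was also below every Apc_WT library. The sum of 6 Paneth markers overlapped, at 1460 to 6415 in Apc_KO, 3734 to 6694 in Apc_HET and 5421 to 9278 in Apc_WT. Its members moved in opposite directions. Pla2g2a was 179 to 601 FPKM in Apc_KO and 8.33 to 15.3 in Apc_WT, and Mmp7 was also above every Apc_WT library. Defa24 was 171 to 1331 in Apc_KO and 2083 to 3426 in Apc_WT, and Itln1 was also below every Apc_WT library. Lyz1 and Ang4 overlapped between these genotypes. Most of these sums moved with genotype, and their part in the results below was not tested. In bulk RNA of this kind, fewer cells of a type and less RNA per cell cannot be told apart.

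Most of the carriers that changed were lower in Apc_KO. Of the 73 tested, 11 were higher and 38 lower in Apc_KO than in Apc_WT, and 24 did not pass (limma on log2(FPKM + 1), Benjamini-Hochberg adjusted p under 0.05, n = 4 a genotype). The background over all genes was 27.9% higher and 17.7% lower (45.5% in either direction), against 15.1% and 52.1% of these carriers. The direction of that background depended on scaling: 3613 genes were higher and 2291 lower, against 2890 and 2807 with size factors and 2764 and 3043 with quantile normalization, where the carriers gave 11 higher and 39 lower, and 10 and 41. Their median log2 difference was -0.53, against 0.12 over all genes tested, and the 0.12 shift fell to 0.01 when libraries were rescaled by size factors. Among 175 other tested Slc symbols, 47 were higher and 64 lower. A change of at least 1 on the log2 scale was seen in 8 of the higher and 26 of the lower carriers, 10.96% and 35.6% of those tested, against 11.8% and 7.97% of all genes. The share of such rises was near the background. The values of the 4 Apc_KO and the 4 Apc_WT libraries did not overlap for 12 carriers on the higher side and 34 on the lower side, against 24.3% and 16% of all genes. Of the 73, 7 passed the abundance filter only with the Apc_KO libraries, 6 of them among the 11 higher, so that they entered the test only through their Apc_KO values. Slc5a5, Slco5a1, Slc16a14, Slc19a3 and Slc44a5 are among these 7, and for them values are given below without a p-value. In the other direction, 21 of the 73 were under 1 FPKM in at least 1 Apc_KO library and would not have passed on that genotype alone. Because 1 is added before taking logarithms, the log2 differences understate the change of low genes.

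**Figure D1:**
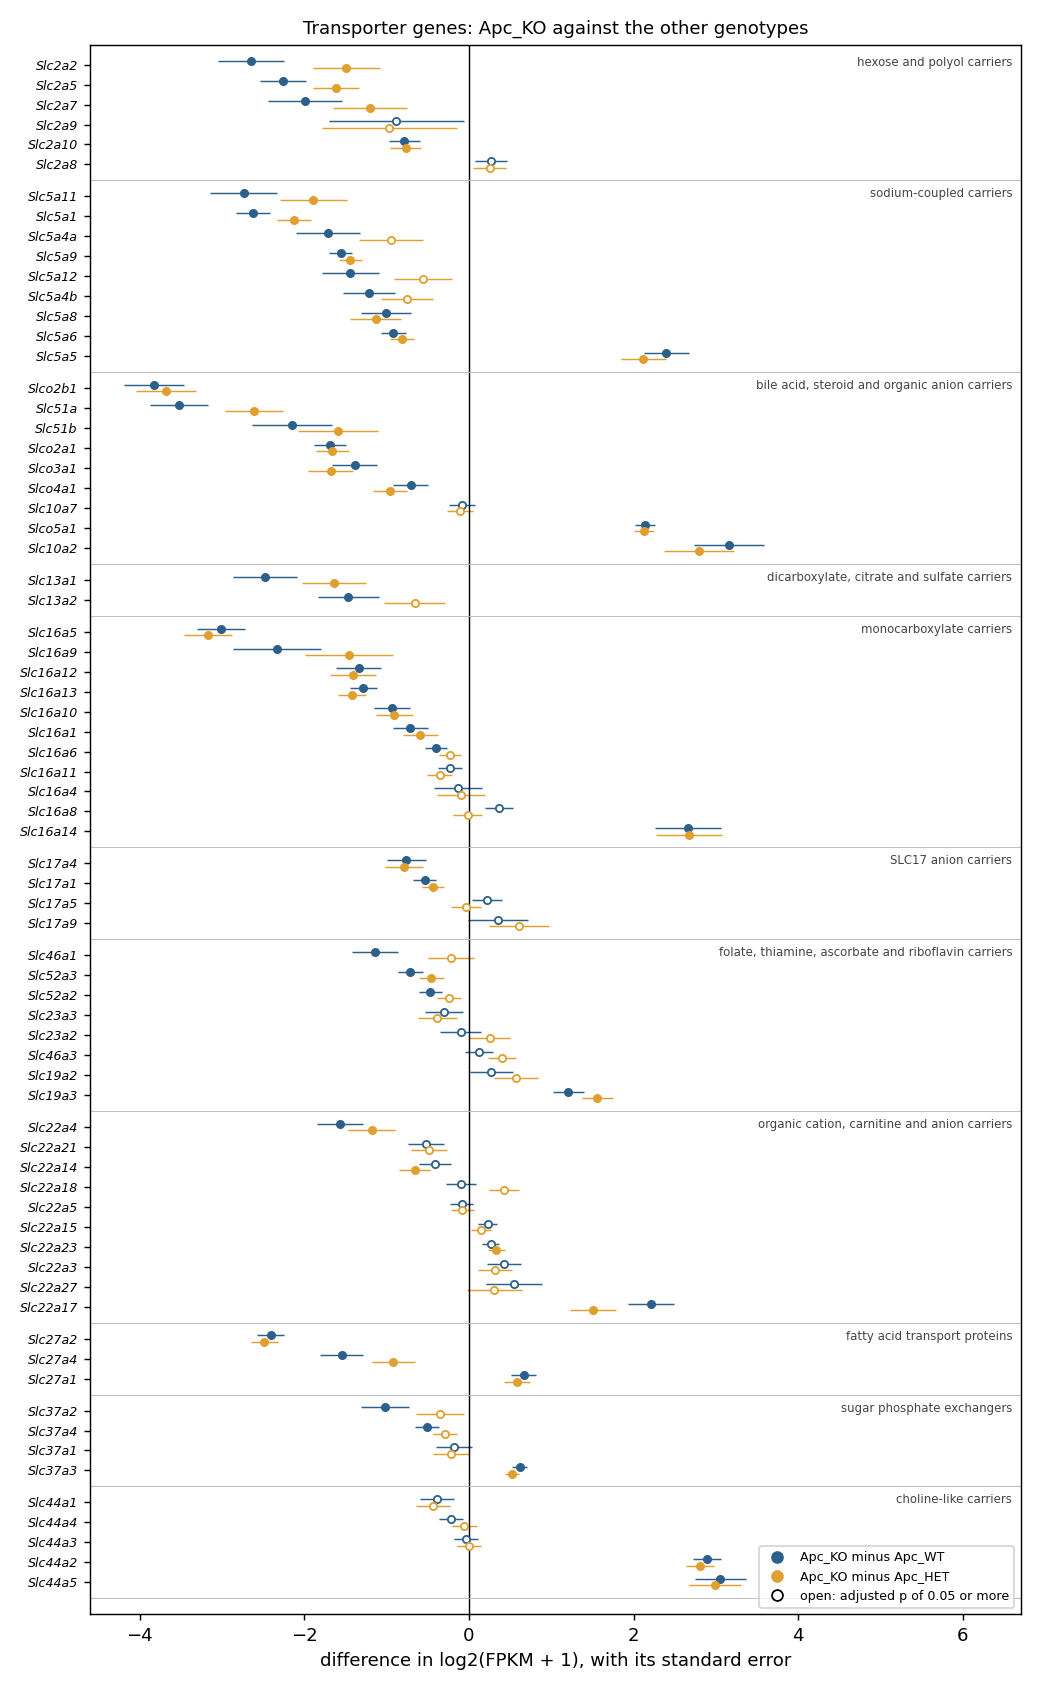
Differences in log2(FPKM + 1) of 71 of the 73 tested carriers, by family, for Apc_KO minus Apc_WT (blue) and Apc_KO minus Apc_HET (orange), with standard errors; filled points passed an adjusted p of 0.05. The 2 comparisons share the Apc_KO libraries. Hexose and sodium-coupled carriers lie mostly left of 0, and choline-like carriers Slc44a2 and Slc44a5 lie far to the right.

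The glucose and fructose carriers of the absorptive membrane fell in Apc_KO. All 9 tested SLC5 genes passed against Apc_WT, 8 lower and 1 higher, and 6 passed against Apc_HET, 5 lower and 1 higher. These are shares of 100% and 66.7% called, against 45.5% and 41.8% of all genes. The 1 higher was Slc5a5, which entered the test only through its Apc_KO values. Against Apc_WT, 4 of the 6 tested facilitative hexose carriers were lower with none higher (66.7% called). Slc5a1, the apical sodium-glucose carrier, was the most abundant of the sodium-coupled genes, with 18.2, 18.6, 16.9 and 15.9 FPKM in Apc_KO, 86.3, 71.9, 58.8 and 108 FPKM in Apc_HET and 88.5, 106, 102 and 167 FPKM in Apc_WT. The Apc_KO libraries lay close together and below every other library, and the log2 difference from Apc_WT was -2.63 ± 0.21 (SE, n = 4 each, limma adjusted p = 9.38e-07).

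Slc2a2, encoding the basolateral carrier GLUT2, had 0.361, 0.760, 0.509 and 0.798 FPKM in Apc_KO, 4.39, 2.81, 1.22 and 7.87 FPKM in Apc_HET and 6.92, 6.22, 7.54 and 19.6 FPKM in Apc_WT. No Apc_KO library reached the lowest Apc_HET library, and the log2 difference from Apc_WT was -2.65 ± 0.40 (SE, n = 4 each, limma adjusted p = 0.000195). Slc2a5, the fructose carrier, had 1.05, 1.17, 1.40 and 1.72 FPKM in Apc_KO, 7.28, 4.41, 5.05 and 8.38 FPKM in Apc_HET and 8.72, 7.80, 7.48 and 20.3 FPKM in Apc_WT. The groups did not overlap between Apc_KO and the other genotypes (log2 difference from Apc_WT -2.26 ± 0.28, limma adjusted p = 3.65e-05, n = 4 each). Slc2a7, another hexose carrier, was 0.0397 to 1.04 FPKM in Apc_KO, 0.919 to 3.94 FPKM in Apc_HET and 2.13 to 13.2 FPKM in Apc_WT (log2 difference from Apc_WT -1.996). Slc5a11, a sodium-myo-inositol carrier, was 0.0414 to 0.421 FPKM in Apc_KO, 1.36 to 6.501 FPKM in Apc_HET and 5.21 to 14.8 FPKM in Apc_WT (log2 difference from Apc_WT -2.74). For Slc2a2, Slc2a5, Slc2a7 and Slc5a11 the highest Apc_WT value was that of replicate 4, and the calls against Apc_WT held without it.

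The remaining sodium-coupled carriers that fell were lower in abundance or in effect. Slc5a6, the sodium-dependent multivitamin carrier for biotin and pantothenate, averaged 3.70 ± 1.06 FPKM in Apc_KO, 7.13 ± 0.586 FPKM in Apc_HET and 7.72 ± 0.384 FPKM in Apc_WT (SD, n = 4 each). Its log2 difference from Apc_WT was -0.92. The locus listed for Slc5a6 is 3.30 times as long as the annotated gene, so neighbouring transcripts may add to its value. Slc5a9, a mannose and glucose carrier, Slc5a8 and Slc5a12, both sodium-coupled monocarboxylate carriers, and the close copies Slc5a4a and Slc5a4b were also lower, with log2 differences from -1.01 to -1.71. Fragments of Slc5a4a and Slc5a4b may be shared between the copies, and the loci listed for Slc5a12 and Slc5a8 span 48.3% and 37.8% of their annotated genes (GENCODE vM21), so these 4 values are uncertain. Slc2a9, a urate and hexose carrier, was the most abundant of the tested Slc2a genes, which leave out Slc2a1. It spread from 2.68 to 14.7 FPKM in Apc_KO, 3.54 to 40.3 FPKM in Apc_HET and 3.75 to 57.8 FPKM in Apc_WT and did not pass. Slc2a8, an intracellular hexose carrier, did not pass either (log2 difference 0.27 ± 0.20 SE).

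The single riser among the sodium-coupled genes was Slc5a5, the iodide carrier of the thyroid. It had 4.36, 14.0, 8.18 and 5.14 FPKM in Apc_KO, 0.898, 0.559, 1.23 and 0.934 FPKM in Apc_HET and 0.525, 0.355, 0.678 and 0.698 FPKM in Apc_WT. The log2 difference from Apc_WT was 2.40 ± 0.27 (SE, n = 4 each). Slc5a5 entered the test only through its Apc_KO values, so their lying above all others is no separate support. The locus listed for it spans 8.94% of the annotated gene, so the value may not cover the whole transcript.

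**Figure D2:**
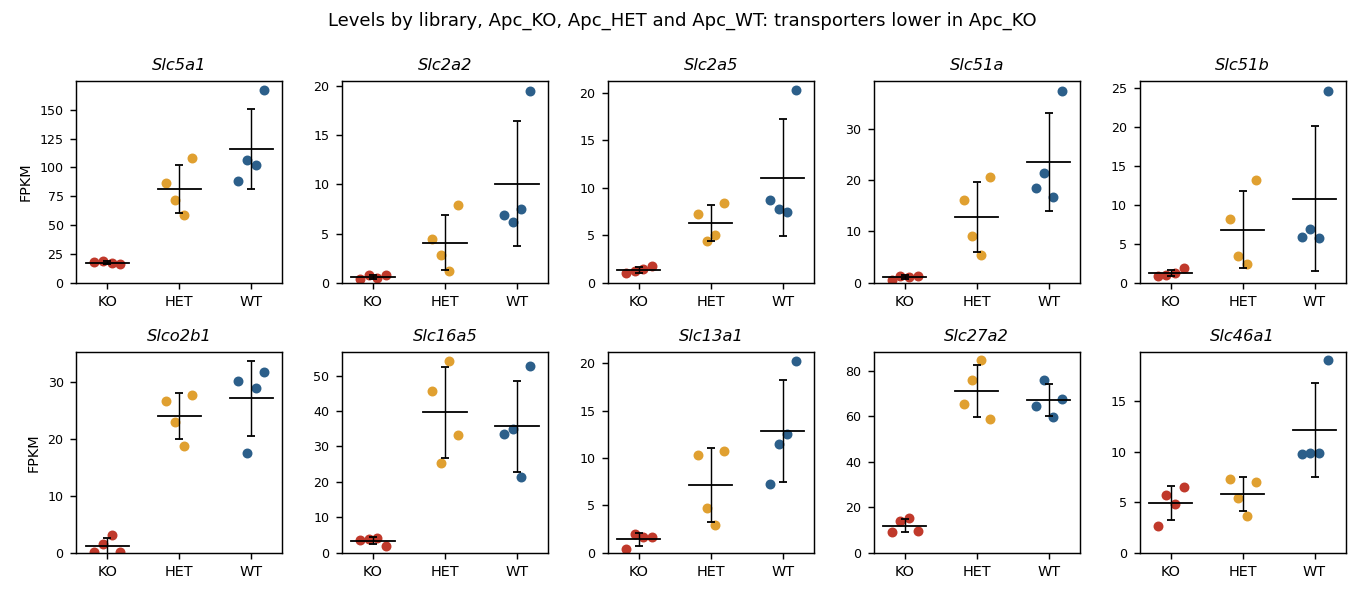
FPKM in each library (points) for 10 carriers lower in Apc_KO, with the mean (bar) and SD; panels run Apc_KO, Apc_HET, Apc_WT and each has its own scale. The Apc_KO points sit below all others in every panel but that of Slc46a1, where they overlap Apc_HET. Apc_WT replicate 4 is the highest of its genotype in every panel but that of Slc27a2.

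Bile acid and organic anion carriers moved in both directions. Of 9 tested, 6 were lower and 2 higher in Apc_KO than in Apc_WT, a share of 88.9% called, against 45.5% of all genes. Slco5a1, among the higher, entered the test only through its Apc_KO values. Both subunits of the basolateral bile acid exporter fell: Slc51a had 0.563, 1.20, 1.17 and 1.30 FPKM in Apc_KO, 16.1, 9.16, 5.29 and 20.7 FPKM in Apc_HET and 18.4, 21.5, 16.7 and 37.5 FPKM in Apc_WT. Slc51b had 0.870, 1.003, 1.22 and 1.86 FPKM in Apc_KO, 8.19, 3.39, 2.42 and 13.2 FPKM in Apc_HET and 5.86, 6.83, 5.71 and 24.7 FPKM in Apc_WT. For both genes every Apc_KO library was below every Apc_HET and Apc_WT library. The log2 differences from Apc_WT were -3.52 ± 0.35 for Slc51a and -2.15 ± 0.49 for Slc51b (SE, n = 4 each, limma adjusted p = 7.14e-06 and 0.00328). The locus of Slc51a runs past the annotated gene, so neighbouring transcripts may add to its value.

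Slc10a2, the apical bile acid uptake carrier ASBT, went the other way, with 32.5, 14.0, 8.80 and 12.1 FPKM in Apc_KO, 1.93, 0.384, 3.44 and 0.554 FPKM in Apc_HET and 1.39, 0.514, 0.311 and 1.14 FPKM in Apc_WT. The lowest Apc_KO library exceeded the highest Apc_HET and Apc_WT library. The log2 difference from Apc_WT was 3.16 ± 0.42 (SE, n = 4 each, limma adjusted p = 7.21e-05). The Apc_KO mean was 20.1 times the Apc_WT mean, and Apc_KO replicate 1 was the highest of its genotype.

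Slco2b1, an organic anion carrier, had the largest fall on the log2(FPKM + 1) scale, with 0.0896, 1.54, 3.06 and 0.232 FPKM in Apc_KO, 26.6, 22.9, 18.8 and 27.7 FPKM in Apc_HET and 30.2, 17.5, 29.0 and 31.8 FPKM in Apc_WT. The groups did not overlap (log2 difference from Apc_WT -3.83 ± 0.36, limma adjusted p = 4.35e-06, n = 4 each), and the listed locus spans 77.7% of the annotated gene. Without the added 1, the ratio of the Apc_KO mean to the Apc_WT mean was 0.0454 for Slco2b1, 0.0450 for Slc51a and 0.0262 for Slc5a11. The prostaglandin carrier Slco2a1 fell by 1.69 log2 units, Slco3a1 fell by 1.39 (a difference of -0.86 without Apc_KO replicates 1 and 4) and Slco4a1 fell by 0.71. Slc10a7, which is not a bile acid carrier, did not pass (log2 difference -0.08 ± 0.16 SE). Slco5a1, whose substrate is not established, was at 3.12 to 4.22 FPKM in Apc_KO, against 0.00928 to 0.0909 FPKM in Apc_HET and 0.0241 to 0.0725 FPKM in Apc_WT. Every Apc_KO library was above every other library, which is no separate support because the gene passed the filter only with them. The gene is named here after its values were seen, being under the 5 FPKM of the naming rule.

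A window of 300 bases around the annotated start (250 before, 50 after) is shown for 3 carriers. They are an apical and a basolateral bile acid carrier that moved in opposite directions and the most abundant of the tested glucose carriers. Sequences are from RefSeq, build GRCm38.p6, gene strand, 5′ to 3′. Capitals mark a searched motif, either the HNF4 letters CAAAGTC or the HNF1 letters GTTAAT, on either strand.
Slc51a (chr16:32487830-32488129, minus strand): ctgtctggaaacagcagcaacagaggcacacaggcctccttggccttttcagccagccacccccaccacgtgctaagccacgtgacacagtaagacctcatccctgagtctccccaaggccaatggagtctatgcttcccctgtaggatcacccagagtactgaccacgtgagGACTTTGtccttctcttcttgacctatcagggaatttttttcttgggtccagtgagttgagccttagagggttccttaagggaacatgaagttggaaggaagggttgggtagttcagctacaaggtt
Slc10a2 (chr8:5105238-5105537, minus strand): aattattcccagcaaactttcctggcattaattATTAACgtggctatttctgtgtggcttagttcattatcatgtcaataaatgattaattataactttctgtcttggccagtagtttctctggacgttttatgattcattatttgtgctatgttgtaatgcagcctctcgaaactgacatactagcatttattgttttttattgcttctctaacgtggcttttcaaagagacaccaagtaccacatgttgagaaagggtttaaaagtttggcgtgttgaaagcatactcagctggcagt
Slc5a1 (chr5:33103969-33104268, plus strand): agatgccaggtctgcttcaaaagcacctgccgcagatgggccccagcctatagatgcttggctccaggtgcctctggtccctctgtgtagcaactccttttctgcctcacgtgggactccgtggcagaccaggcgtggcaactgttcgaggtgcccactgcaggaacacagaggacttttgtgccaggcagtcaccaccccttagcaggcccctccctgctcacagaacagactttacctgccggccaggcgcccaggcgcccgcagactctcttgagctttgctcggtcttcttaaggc
The Slc51a window holds GACTTTG at position -77 relative to the annotated start and the Slc10a2 window holds ATTAAC at position -217, while neither is in the Slc5a1 window. The letters of 5 motifs, on both strands, were counted in the 77 windows of the 62 members that have one, with the same count in all 32851 windows: TCF/LEF (CTTTGAT) was in 3.9% of member windows against 3.73%, HNF4 in 5.19% against 4.44%, and HNF1 in 5.19% against 7.1%. The CDX letters (TTTATGG) were in 1.3% against 2.75% and the GATA letters (AGATAA) in 2.6% against 11.2%. The TCF/LEF and HNF4 letters share CAAAG on one strand, so their matches can lie close together. A match is a description of letters, and no match says only that the letters are not in the window.

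Monocarboxylate and dicarboxylate carriers mainly fell. Of 12 tested SLC16 genes, 7 were lower and 2 higher, and both tested SLC13 genes were lower. These are shares of 75% and 100% called, against 45.5% of all genes. Slc16a14, among the higher, entered the test only through its Apc_KO values. Slc16a5 had 3.57, 3.87, 4.30 and 2.01 FPKM in Apc_KO, 45.7, 25.2, 54.2 and 33.3 FPKM in Apc_HET and 33.5, 35.0, 21.5 and 52.7 FPKM in Apc_WT. Apc_HET and Apc_WT overlapped widely while Apc_KO lay below both (log2 difference from Apc_WT -3.01 ± 0.29, limma adjusted p = 4.6e-06, n = 4 each). Slc13a1, the sulfate carrier, had 0.448, 2.01, 1.65 and 1.68 FPKM in Apc_KO, 10.3, 4.71, 2.91 and 10.7 FPKM in Apc_HET and 7.24, 11.5, 12.5 and 20.3 FPKM in Apc_WT. Every Apc_KO library was below every other one (log2 difference from Apc_WT -2.47 ± 0.39, limma adjusted p = 0.000243, n = 4 each), and Slc13a2, the citrate and dicarboxylate carrier, fell by 1.47 log2 units.

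Slc16a1, the lactate and pyruvate carrier MCT1 and the most abundant SLC16 gene, had 35.3, 68.1, 56.9 and 29.9 FPKM in Apc_KO, 69.1, 66.1, 62.1 and 77.3 FPKM in Apc_HET and 75.8, 72.5, 77.9 and 72.4 FPKM in Apc_WT. Apc_KO replicate 2 lay inside the Apc_HET range, and the other 3 Apc_KO libraries were below every Apc_HET and Apc_WT library. The log2 difference from Apc_WT was -0.72 (limma adjusted p = 0.0155, n = 4 each) and without Apc_KO replicates 1 and 4 it was -0.26 (limma adjusted p = 0.0582). The summed FPKM of 6 cycling markers was likewise 133, 365, 379 and 174 in Apc_KO, against 293 to 319 in Apc_HET and 228 to 335 in Apc_WT, and its part in the Slc16a1 values was not tested. The aromatic amino acid carrier Slc16a10 fell by 0.93 log2 units, the creatine carrier Slc16a12 fell by 1.34 and Slc16a13 fell by 1.28. The locus listed for Slc16a13 is 2.20 times as long as the annotated gene, so neighbouring transcripts may add to its value. Slc16a9 fell by 2.33, with Apc_WT replicate 2 (1.13 FPKM) inside the Apc_KO range of 0 to 1.30 FPKM.

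Slc16a14, an SLC16 gene without an established substrate, had 13.9, 2.13, 2.68 and 9.09 FPKM in Apc_KO, 0, 0.0165, 0.00877 and 0.0220 FPKM in Apc_HET and 0, 0.0758, 0 and 0 FPKM in Apc_WT. It was near 0 outside Apc_KO, so no fold is given. Its log2 difference, 2.66, was 1.74 without Apc_KO replicates 1 and 4, which held its high values. Slc16a3, the lactate carrier MCT4, had 23.5, 29.5, 28.9 and 46.9 FPKM in Apc_KO at chr11:120959659-120960843, but its row in Apc_HET (1.11 to 1.57 FPKM) and Apc_WT (1.64 to 2.72 FPKM) is another locus, chr11:120948526-120959570. The values belong to different loci (build mm10) and were not compared.

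Of 8 tested carriers of folate, thiamine, ascorbate and riboflavin, 3 were lower and 1 higher in Apc_KO than in Apc_WT, a share of 50% called that is near the 45.5% of all genes. Slc46a1, the proton-coupled folate carrier of the proximal intestine, had 2.64, 5.68, 4.86 and 6.56 FPKM in Apc_KO, 7.29, 5.43, 3.62 and 7.05 FPKM in Apc_HET and 9.77, 9.84, 9.83 and 19.1 FPKM in Apc_WT. Both Apc_KO and Apc_HET lay below Apc_WT without overlap, and only the Apc_KO difference passed (-1.14 ± 0.28, limma adjusted p = 0.00507, n = 4 each). The riboflavin carrier Slc52a3 fell by 0.71 log2 units. Slc52a2, also a riboflavin carrier, fell by 0.47, and its difference did not pass without Apc_WT replicate 4 (-0.38, limma adjusted p = 0.056) or without Apc_KO replicates 2 and 3 (-0.39, limma adjusted p = 0.0847). The thiamine carrier Slc19a3 was 1.73 to 3.96 FPKM in Apc_KO, 0.230 to 0.456 FPKM in Apc_HET and 0.5002 to 1.02 FPKM in Apc_WT (log2 difference from Apc_WT 1.21). Slc19a3, the 1 higher, entered the test only through its Apc_KO values and is also named after its values were seen. The other thiamine carrier, Slc19a2, did not pass at 27.2 ± 11.6 FPKM in Apc_KO, 16.9 ± 1.61 FPKM in Apc_HET and 21.7 ± 6.95 FPKM in Apc_WT (SD, n = 4 each). The ascorbate carrier Slc23a2 averaged 10.4 FPKM in Apc_KO and 10.9 FPKM in Apc_WT and did not pass. Slc19a1, the reduced folate carrier, was not tested because its estimate had failed in Apc_KO replicate 4, the other libraries holding 12.8 to 18.5 FPKM.

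Among 11 tested organic cation, carnitine and anion carriers of SLC22, 1 was higher and 2 lower in Apc_KO than in Apc_WT, and of 4 tested SLC17 genes 2 were lower. These are shares of 27.3% and 50% called, against 45.5% of all genes. Slc22a4, the ergothioneine carrier, fell by 1.57 log2 units, and Slc22a5, the carnitine carrier, averaged 12.9 ± 2.93 FPKM in Apc_KO, 13.5 ± 1.06 FPKM in Apc_HET and 13.7 ± 1.56 FPKM in Apc_WT and did not pass. Slc22a17, a cell-surface receptor for the iron-binding protein lipocalin-2, had 6.86, 8.16, 4.72 and 15.2 FPKM in Apc_KO, 1.63, 2.22, 2.07 and 2.95 FPKM in Apc_HET and 0.431, 1.02, 1.08 and 1.43 FPKM in Apc_WT. The 3 genotypes did not overlap (log2 difference of Apc_KO from Apc_WT 2.21 ± 0.28, limma adjusted p = 4.45e-05, n = 4 each). Slc17a4, an anion carrier of the gut, fell by 0.76 log2 units, with Apc_KO replicate 1 (17.3 FPKM) inside the Apc_WT range of 13.2 to 19.6 FPKM. It did not pass without Apc_KO replicate 2, Apc_KO replicate 3 or Apc_WT replicate 4 (limma adjusted p = 0.0545, 0.0513 and 0.0544), in a fit of the 2 genotypes alone (0.0506), or without both Apc_KO replicates 2 and 3, where the difference was -0.38. The lysosomal sialic acid carrier Slc17a5 did not pass.

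Fatty acid transport proteins split by member. Slc27a2, which activates very long chain fatty acids, had 9.30, 13.9, 15.1 and 9.78 FPKM in Apc_KO, 65.5, 76.0, 84.8 and 58.7 FPKM in Apc_HET and 64.6, 76.2, 59.8 and 67.9 FPKM in Apc_WT. The Apc_HET and Apc_WT libraries overlapped, and every Apc_KO library was below both (log2 difference from Apc_WT -2.41 ± 0.16, limma adjusted p = 3.23e-07, n = 4 each). Slc27a4, the main intestinal member of the family, averaged 8.77 ± 1.20 FPKM in Apc_KO, 18.4 ± 7.31 FPKM in Apc_HET and 28.2 ± 8.52 FPKM in Apc_WT (SD, n = 4 each, log2 difference from Apc_WT -1.55). Slc27a1 rose instead, to 45.2 ± 10.6 FPKM in Apc_KO, against 29.5 ± 3.61 FPKM in Apc_HET and 27.8 ± 3.58 FPKM in Apc_WT (log2 difference from Apc_WT 0.66, limma adjusted p = 0.0042, n = 4 each). Of the sugar phosphate exchangers, Slc37a4, which feeds glucose-6-phosphate to the endoplasmic reticulum, fell by 0.51 log2 units, with a difference of -0.33 without Apc_KO replicates 2 and 3, where it did not pass (limma adjusted p = 0.112). Slc37a2 fell by 1.02 and Slc37a3 rose by 0.61. Slc37a1 had 39.8, 21.7, 23.2 and 46.8 FPKM in Apc_KO, where replicates 2 and 3 were low, and its difference from Apc_WT did not pass (-0.18). Without Apc_KO replicates 1 and 4 it was -0.64 (limma adjusted p = 0.00218) and with library weights -0.51 (0.0184), both past the threshold, and without replicates 2 and 3 it was 0.27, so the value rests on which Apc_KO libraries are used.

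Of 5 tested choline-like carriers, 2 were higher in Apc_KO than in Apc_WT and none lower. The share called was 40%, under the 45.5% of all genes, and Slc44a5 entered the test only through its Apc_KO values. Slc44a2, a choline carrier, had 53.4, 32.9, 39.2 and 56.6 FPKM in Apc_KO, 5.82, 6.00, 6.10 and 4.30 FPKM in Apc_HET and 5.90, 4.78, 4.79 and 5.17 FPKM in Apc_WT. The Apc_KO mean was 8.82 times the Apc_WT mean, with log2 difference 2.89 ± 0.17 (SE, limma adjusted p = 1e-07, n = 4 each), and the Apc_HET and Apc_WT libraries overlapped. Slc44a5 had 9.69, 9.96, 10.8 and 2.54 FPKM in Apc_KO, 0.0155, 0, 0.224 and 0 FPKM in Apc_HET and 0.0268, 0, 0 and 0 FPKM in Apc_WT. Its listed locus spans 11.4% of the annotated gene, and no fold is given against values near 0. Slc44a1, Slc44a3 and Slc44a4, the last of which carries thiamine pyrophosphate in the colon, were abundant, averaging 32.3, 29.1 and 34.3 FPKM in Apc_KO and 40.9, 29.4 and 40.3 FPKM in Apc_WT, and none passed.

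**Figure D3:**
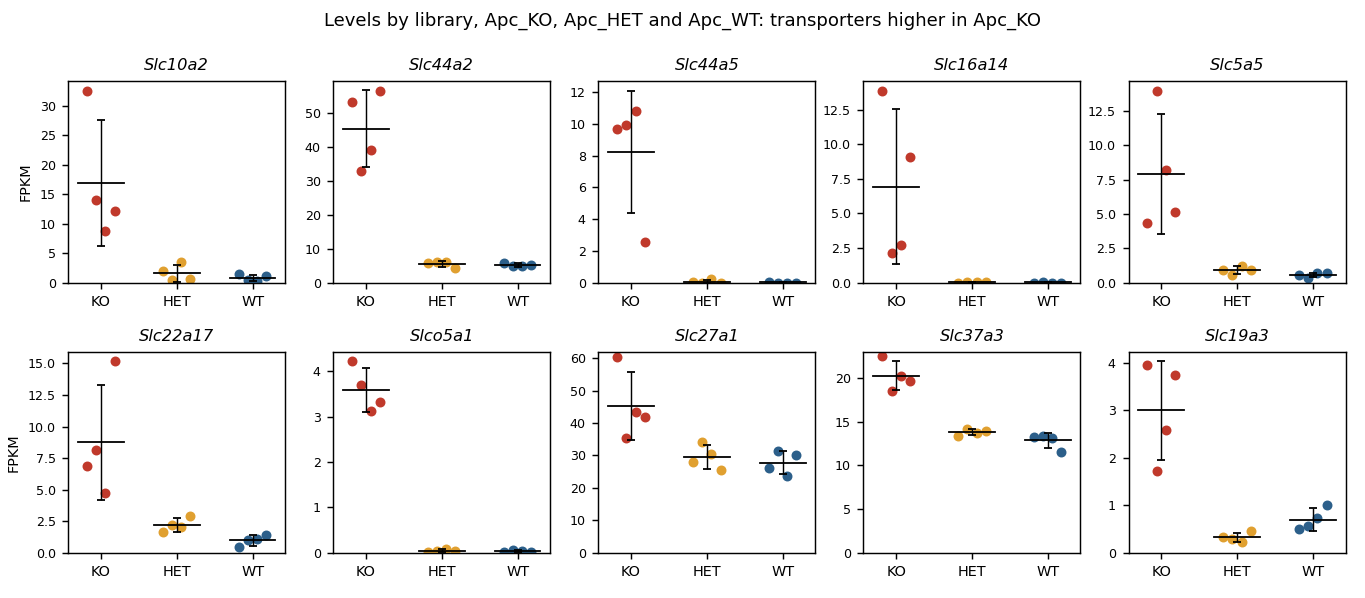
FPKM in each library (points) for 10 carriers higher in Apc_KO, with the mean (bar) and SD; panels run Apc_KO, Apc_HET, Apc_WT and each has its own scale. For Slc44a2 the 4 Apc_KO libraries are between 32.9 and 56.6 FPKM, and all other libraries are at 6.10 FPKM or less.

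The carriers were also compared between Apc_KO and Apc_HET, with the same Apc_KO libraries as above. Of the 73, 12 were higher, 30 lower and 31 did not pass (background 22.8% higher, 18.9% lower and 41.8% either over all genes), with a median log2 difference of -0.43 against 0.04 over all genes. On the log2(FPKM + 1) scale the largest falls were those of Slco2b1 (-3.68), Slc16a5 (-3.17), Slc51a (-2.61), Slc27a2 (-2.48) and Slc5a1 (-2.13), and Slc2a5 (-1.61) and Slc2a2 (-1.49) fell as well. Among carriers that pass the filter without the Apc_KO libraries, the largest rises were those of Slc44a2 (2.80) and Slc10a2 (2.79). Slc44a5 (2.99), Slc16a14 (2.67) and Slco5a1 (2.13) are also among the 12 higher, as are Slc5a5 and Slc19a3. These entered the test only through their Apc_KO values, so for them a rise was built into the filter. The added 1 compresses the differences of low genes, and with a pseudocount of 0.1 that of Slc44a5 was 5.71 and that of Slc16a14 was 5.57. Of the carriers called against Apc_WT, 9 did not pass here: Slc46a1 (-0.22 ± 0.28 SE), Slc37a4 (-0.29), Slc37a2 (-0.35), Slc16a6 (-0.23), Slc52a2 (-0.24), Slc13a2 (-0.66), Slc5a12 (-0.56), Slc5a4a (-0.95) and Slc5a4b (-0.75). Slc22a14 passed here at -0.66 ± 0.19 SE and did not pass against Apc_WT at -0.42 ± 0.19 SE, and its listed locus spans 15.7% of the annotated gene. Slc22a23, an orphan carrier, passed here at 0.33 ± 0.11 SE and did not pass against Apc_WT at 0.26.

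Several of these calls against Apc_HET did not hold when single libraries were removed. Slc51b did not pass without Apc_HET replicate 1 or 4 (limma adjusted p = 0.0584 and 0.0625). Slc52a3 did not pass without Apc_HET replicate 1 or 4 or Apc_KO replicate 1, 2 or 3 (0.0521 to 0.092). Slc2a7 did not pass without Apc_KO replicate 1, 2 or 3, Apc_HET replicate 1, 2 or 4 or Apc_WT replicate 2 or 3 (0.0558 to 0.138). Slc16a9 did not pass without Apc_KO replicate 1, 2 or 3, Apc_HET replicate 1, 3 or 4 or Apc_WT replicate 1 or 4 (0.0521 to 0.126). Slc16a1 did not pass without Apc_KO replicate 1 or 4 or any single Apc_HET or Apc_WT library (0.0531 to 0.104). Slc22a23 did not pass without Apc_KO replicate 3 or Apc_HET replicate 2, 3 or 4 (0.0526 to 0.0676). Without both Apc_KO replicates 1 and 4, Slc2a2 (0.0514) and Slc27a4 (0.0854) did not pass, and without both replicates 2 and 3, Slc17a4 (0.175) and Slc22a14 (0.1235) did not.

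Between Apc_HET and Apc_WT no carrier passed: limma called 0 of 73 (background 0%) and 0 of all 12962 genes. At an unadjusted p under 0.05 there were 561 of all 12962 genes (4.33%), 137 lower and 424 higher in Apc_HET. Of the 73 carriers there were 12, with 10 lower and 2 higher. The smallest was Slc46a1 at -0.92 ± 0.28 (SE, limma unadjusted p = 0.00625, adjusted p = 0.987, n = 4 each), lower in 4 of 4 Apc_HET libraries than in every Apc_WT library. Slc2a2 followed at -1.16 ± 0.40 and Slc22a18 at -0.52 ± 0.18, with overlapping groups. The 2 on the higher side were Slc22a17 at 0.70 ± 0.28 (limma unadjusted p = 0.0273), where the groups did not overlap, and Slc16a8 at 0.38 ± 0.17 (0.0481). Slc17a5, next in order on that side, was at 0.26 ± 0.18 with a limma unadjusted p of 0.183. The Apc_HET enterocyte marker sum was lowest in replicate 3, which was also the lowest Apc_HET library for 24 of the 38 carriers lower in Apc_KO; Apc_WT replicate 4 was the highest Apc_WT library for 24 of them. Whether the marker sums account for this was not tested.

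**Figure D4:**
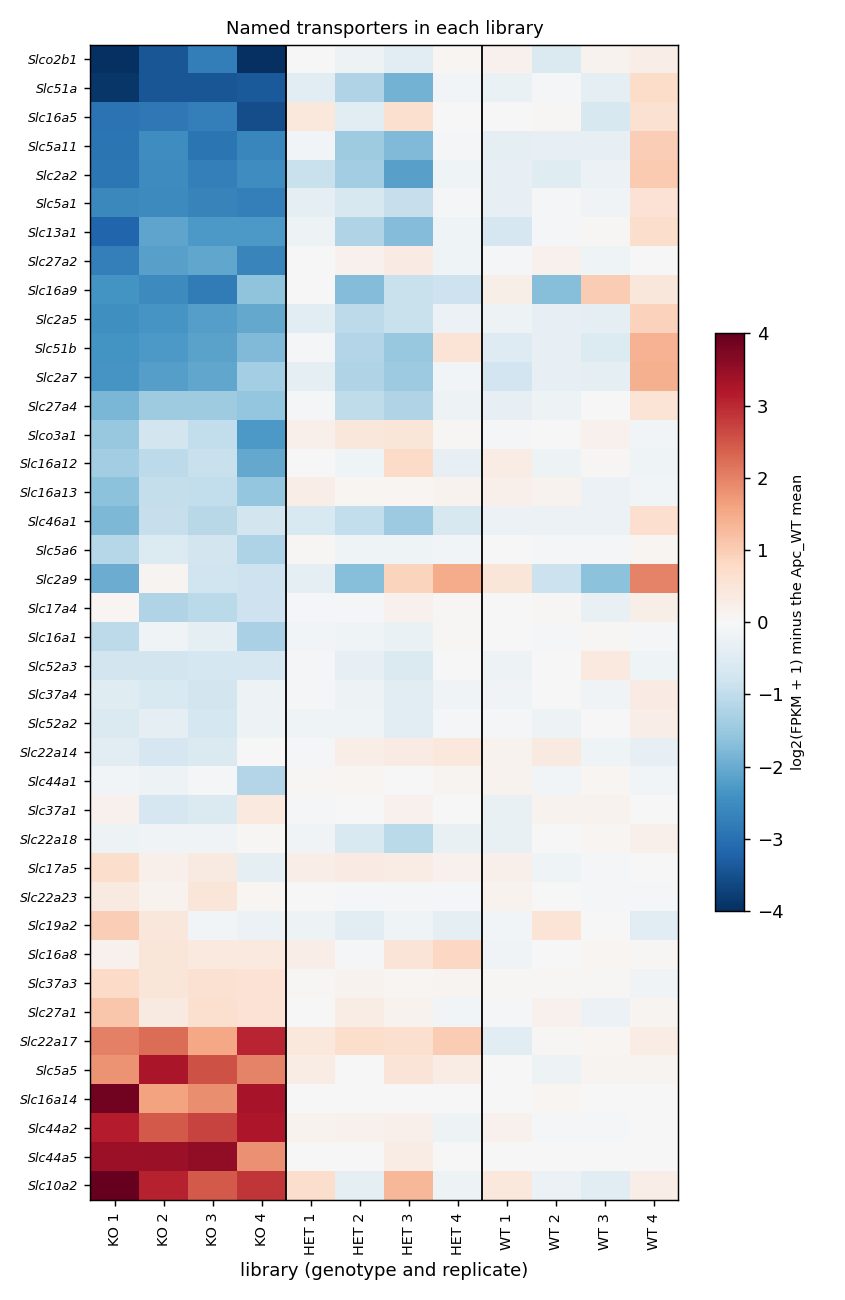
Heatmap of log2(FPKM + 1) minus the Apc_WT mean for the 40 named carriers (rows, ordered by the Apc_KO mean) in 12 libraries (Apc_KO, Apc_HET and Apc_WT, 4 each); colour saturates at -4 and 4. The Apc_KO columns differ from the rest at both ends, and Apc_HET replicates 2 and 3 are also blue for several of the upper rows.

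Genes that use, sense or regulate these solutes were counted too, from lists chosen with earlier results known. Of 13 fructose and glucose handling genes, 8 were lower and 1 higher in Apc_KO than in Apc_WT (69.2% called, against 45.5% of all genes). Among the lower was the fructolytic ketohexokinase Khk (-2.91). Of 8 fatty acyl-CoA and fatty acid binding genes, 6 were lower and 2 higher (100% called). Fabp2 (-3.68) and Fabp1 (-3.51) were among the lower, and Acsl4 (2.57) and Acsl3 (0.84) were higher. Of 5 bile acid genes, 2 were higher and 1 lower (60% called). Cyp27a1, a bile acid synthesis enzyme (2.46), and Fgfr4 (1.24) were higher and the bile acid receptor gene Nr1h4 (-1.55) was lower. Of 16 transcription factors and coactivators of intestinal genes, 13 were lower and none higher (81.25% called, against 17.7% lower over all genes). Among the lower were Vdr (-3.95), Hnf4g (-2.42) and Hnf4a (-1.60). Emb, a partner protein of monocarboxylate carriers, was 16.2 ± 3.43 FPKM in Apc_KO, against 0.456 ± 0.173 FPKM in Apc_HET and 0.305 ± 0.158 FPKM in Apc_WT (SD, n = 4 each, log2 difference from Apc_WT 3.71), while Bsg, the other partner, did not pass. Of 8 folate and one-carbon genes, 1 was higher and 2 lower (37.5% called), of 10 thiamine, riboflavin, pantothenate and biotin genes 4 were lower (40%), and of 8 lactate genes 2 were lower (25%), all under the 45.5% called over all genes. Of 10 choline and carnitine genes, 5 were lower and 1 higher (60%).

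The remaining tested carriers that passed against Apc_WT were Slc2a10, which fell by 0.79 log2 units, Slc16a6, which fell by 0.40, and Slc17a1, which fell by 0.54 and whose listed locus spans 2.72% of the annotated gene. Those that did not pass were Slc16a4, Slc16a8, Slc16a11, Slc17a9, Slc22a3, Slc22a15, Slc22a18, Slc22a21, Slc22a27, Slc23a3 and Slc46a3, with log2 differences between -0.53 (Slc22a21) and 0.55 (Slc22a27). The loci listed for Slc16a6, Slc16a8 and Slc16a11 reach over 7.06, 7.61 and 2.56 times the lengths of their genes. Neighbouring transcripts may add to these values. The loci listed for Slc22a27 and Slc16a4 span 5.83% and 36% of their annotated genes, and those of Slc22a27 reach over 2.93 times its length. The values of Slc22a27 and Slc16a4 are therefore uncertain. Of the 82 carriers, 9 were not tested. Slc10a1, Slc16a7, Slc23a1, Slc27a6, Slc2a13 and Slc2a4 did not reach 1 FPKM in 4 libraries. Slc16a3 and Slc22a13b-ps had loci that differed between genotypes, the second having no row in the Apc_KO tables. The joined names Mrps6,Slc5a3 and Acaa1a,Slc22a14,Xylb, in which a carrier shares its row with neighbouring genes, were not counted as members.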

How the data were processed

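Each of the 12 libraries (4 Apc_KO, 4 Apc_HET and 4 Apc_WT) had 1 table of FPKM per assembled locus. The deposited FPKM, named so per the file headers, relate fragments to transcript length and to mapped fragments. The submitters' processing notes list Cuffdiff, Cufflinks, TopHat and Bowtie, with the builds mm10 and GRCm38. Versions and annotation are not given in the sources used here. Of 14499 symbols, 295 with differing loci between genotypes and 122 with a failed estimate were left out. FPKM of 1 symbol were summed over its loci, and 12962 symbols with at least 1 FPKM in 4 libraries were kept.

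log2(FPKM + 1) was fitted with limma 3.58.1 in R 4.3.3 (moderated, with a mean-variance trend, all 12 libraries in 1 fit) and p-values were adjusted by Benjamini-Hochberg over all 12962 genes. Genes under an adjusted p of 0.05 were called. The script was tested on simulated data. Total FPKM per library was 391710 to 518428. Low values step in whole fragments, which placed 5 libraries at 0.735 to 1.10 times the depth of Apc_WT replicate 1, and the other 6 could not be placed. Absolute depth is unknown, so no counting interval is given. The study's design text states 4 mice a genotype, and p-values measure the spread between these libraries.

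The members, lists and tests were chosen with earlier results of these data known. Named members were, in each family, called ones averaging 5 FPKM or more with the largest differences (up to 3 higher, 4 lower), the most abundant member, those called only against Apc_HET, and the 3 of smallest p in each direction for Apc_HET. Other members are given in short, named after their values were seen, so that each member is accounted for. Of the tested members, 2 are counted but not reported by name. Alternatives tried were 2 rescalings, other pseudocounts and filters, library weights, a replicate block and left-out libraries.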

Additional observations from a re-analysis of the deposited data

Results flagged for a closer look

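In 120 groups of 4 libraries (40 named carriers in 3 genotypes), 13 values stood apart by Dixon's test. Chance flags about 1 in 20 independent groups, but these groups share the same 12 libraries, so no excess over chance is measured. In 7 of the 13 the library was Apc_WT replicate 4, which was high for Slc2a2 (19.56 FPKM, other Apc_WT libraries 6.22 to 7.54), Slc2a5 (20.3), Slc2a7 (13.22), Slc5a11 (14.82), Slc51b (24.65) and Slc46a1 (19.09), and low for Slc37a3 (11.54). The enterocyte marker sum of that library was 6712 FPKM, the highest of the 12, and its part in these values was not tested.

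Apc_KO replicate 4 was low for Slc44a5 (2.542) and Slc44a1 (17.51). Apc_HET replicate 4 was low for Slc44a2 (4.296). The flags for Slc44a5 in Apc_HET replicate 3 (0.224) and Apc_WT replicate 1 (0.02677), and for Slc16a14 in Apc_WT replicate 2 (0.07582), concern values near 0.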

How the results depend on the processing

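The counts of changed carriers (11 higher and 38 lower in Apc_KO than in Apc_WT, 12 and 30 against Apc_HET, 0 for Apc_HET against Apc_WT) stayed within 1.5 times of these under every alternative but a filter of 5 FPKM, which tests fewer genes and gave 4 higher against Apc_WT and 5 higher against Apc_HET. Leaving out 1 library at a time gave 11 to 14 higher and 35 to 40 lower against Apc_WT, 11 to 13 higher and 24 to 32 lower against Apc_HET, and 0 for Apc_HET against Apc_WT. The labels number the libraries but pair none, and the same-number correlations of deviations were -0.195 to 0.18, so the numbers were not taken as pairs. With the replicate block the counts were 11, 37, 12, 28 and 0, and the calls of Slc16a1 and Slc52a3 against Apc_HET ended.

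Without Apc_KO replicates 1 and 4, chosen after seeing the data, the counts were 12, 39, 12 and 28, and without replicates 2 and 3 they were 12, 34, 13 and 24. Signs changed for 3 values and none had been called: Slc37a1 without Apc_KO replicates 2 and 3 was 0.27 against Apc_WT and 0.24 against Apc_HET, and Slc2a9 with library weights was 0.0021 against Apc_HET. The cause was not tested. Without Apc_KO replicates 1 and 4 Slc37a1 was -0.64 against Apc_WT and -0.68 against Apc_HET, and with library weights -0.51 and -0.55, all 4 past the threshold. Slc44a1 passed without replicates 2 and 3 (-0.635 against Apc_WT and -0.69 against Apc_HET). Leaving out 1 library brought 5 further differences past the threshold: Slc22a14 (-0.55) and Slc22a23 (0.32) against Apc_WT without Apc_KO replicate 4 (Slc22a23 also without replicate 2), and Slc37a4 (-0.40) and Slc19a2 (0.74) without Apc_KO replicate 4 and Slc22a18 (0.55) without Apc_HET replicate 1 against Apc_HET. Each comparison of a named carrier was counted once under each alternative, the cases above included. Of these counts, 1931 kept their direction and their side of the threshold, 69 lost the call, 19 gained it and 3 changed sign. A pseudocount of 0.1 FPKM enlarged the Apc_KO minus Apc_WT differences of low genes, to -4.77 for Slc5a11, -3.94 for Slc16a9, -3.61 for Slc2a7, 5.53 for Slc16a14 and 6.10 for Slc44a5. Against Apc_HET, the calls of Slc16a1, Slc16a9 and Slc27a4 ended with library weights, that of Slc2a7 with its highest locus alone, that of Slc16a1 in a fit of the 2 genotypes alone and that of Slc22a23 there and with size factors. Unknown absolute depth limits what can be said of carriers under 1 FPKM.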
